A study of Mus musculus with 2 samples.

Results

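Cdx1, Cdx2, Hnf4a, Hnf4g, Gata4, Gata6, Onecut2 and Pdx1 encode transcription factors that set and hold the identity of the intestinal epithelium. These 8 genes were taken by name from the 27998 genes of the count matrices and were read in 10 annotated cell types of jejunal crypts. All 8 had transcripts in the epithelial cells of both mice and passed the filter on low counts.

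The caudal homeodomain factors Cdx1 and Cdx2 direct posterior gut identity, and loss of Cdx2 lets stomach genes appear in the intestine. The nuclear receptors Hnf4a and Hnf4g act together on the genes of absorption and brush border in enterocytes. The zinc finger factor Gata4 maintains the jejunal programme against the ileal one and is close to absent from the ileum, Gata6 is expressed along the whole small intestine, the cut homeodomain factor Onecut2 belongs to the proximal bowel, and Pdx1 marks the duodenum, the pancreas and some hormone cells.

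Droplet-based single-cell RNA-seq was performed on dispase-digested jejunal crypts of 2 male mice with a whole-body knockout of miR-375, aged 12 months, with 1 library per mouse (mouse 1 and mouse 2). The strain was labelled C57BL6/2J; the allele was made with CRISPR/Cas9 in embryos of an FVB by B62J cross and was then backcrossed to B6 albino. Both libraries were 375KO and wild-type libraries were not analysed here, so every comparison was between cell types within knockout mice and none concerned the genotype. Mir375 has no row in the gene list, and the knockout could not be checked in these counts.

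Of 3275 kept cells, 2082 came from mouse 1 and 1193 from mouse 2, with 44017234 and 22163354 unique molecular identifiers (UMIs) and a median of 16475 and 15232 per cell. The study's annotation placed 3207 cells in 9 epithelial types, namely stem cells, transient amplifying (TA) cells, enterocytes, secretory progenitors, goblet progenitors, goblet cells, Paneth cells, enteroendocrine cells (EEC) and tuft cells, and 68 in intraepithelial lymphocytes (IEL). Of 55 marker genes with a type of their own, 51 were highest in that type in both mice. The study named the types of these same cells by known markers, so this was partly set in advance. The libraries shared 0 cell barcodes. The mice differed in mitochondrial share, with a median of 10.2% of UMIs per cell in mouse 1 and 5.55% in mouse 2, and enterocytes of mouse 1 were highest at 13.2%.

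Levels are given as UMIs per 1000000 UMIs of a cell type in 1 mouse (CPM). Among the epithelial types each factor was lowest in Paneth cells on this scale, and Pdx1 had 0 UMIs in Paneth cells and in secretory progenitors of both mice. Paneth cells differed from the other types in composition, since 10 genes held 82.6% and 81.9% of their UMIs, and a CPM in these cells is lowered for all other genes. In a bulk sum, fewer expressing cells and less RNA per cell cannot be told apart. In lymphocytes, which should lack these factors, no factor was seen in more than 11.1% of the cells of a mouse and the highest level was 11.4 CPM, for Cdx2 in mouse 1, taken here as the background of free RNA.

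Cdx2 was similar in EEC, TA cells, stem cells and enterocytes and lower in goblet and Paneth cells. Mouse 1 and mouse 2 had 199.8 and 209 CPM in EEC, 191 and 201 in TA cells, 156 and 231 in stem cells, and 170 and 180.1 in enterocytes. Each neighbour in this order overlapped with the next, and the order changed between mice. Goblet progenitors followed with 148 and 166 CPM, tuft cells with 128 and 130.4, secretory progenitors with 86.9 and 107, and goblet cells with 75.1 and 100.1. From the goblet progenitors downward each step was the same in both mice, and the secretory progenitors and goblet cells were the single pair with overlapping ranges. Paneth cells had 2.84 and 7.10 CPM, and lymphocytes had 11.4 and 0 CPM, from 3 and 0 UMIs. The composition of Paneth cells lowers their CPM, so this comparison cannot tell whether their Cdx2 was at the background. Cdx2 was seen in 10.3% and 40.7% of Paneth cells and in 6.0% and 0% of lymphocytes. Paneth cells also had more UMIs per cell, with medians of 44683.5 and 80820 against 4109.5 and 10225.5, so these shares cannot decide it either.

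Cdx1 had a different order from its paralog, with tuft cells highest and enterocytes low. Tuft cells had 288 CPM in mouse 1 and 488 in mouse 2, and were first in both mice. Secretory progenitors had 195 and 353 CPM, goblet cells 161 and 296, goblet progenitors 162 and 289, stem cells 149 and 295, and TA cells 149 and 278. Below the secretory progenitors the order differed between mice, and every pair of neighbours down to the enterocytes overlapped. EEC had 99.9 and 176 CPM and enterocytes 65.8 and 186, so that the spread between mice exceeded the step between those types. Paneth cells had 12.5 and 26.1 CPM and did not overlap with any other epithelial type.

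Hnf4a was highest in TA cells of both mice, at 219 and 306 CPM. Goblet progenitors had 186 and 257 CPM, stem cells 155 and 215, and enterocytes 143 and 210.2. The order of these 4 types was the same in both mice although all neighbours overlapped. Tuft cells had 79.8 and 188 CPM, EEC 119 and 116, goblet cells 97.8 and 129, secretory progenitors 91.2 and 103, and Paneth cells 10.2 and 12.1. Its paralog Hnf4g was instead highest in enterocytes, at 151 and 93.3 CPM, above the TA cells at 83.7 and 84.1 with no overlap. Stem cells had 64.5 and 76.0 CPM of Hnf4g, goblet progenitors 65.1 and 61.2, EEC 51.6 and 69.6, and tuft cells 43.5 and 53.6. Secretory progenitors at 34.7 and 44.6, goblet cells at 28.8 and 30.8 and Paneth cells at 1.71 and 3.67 CPM formed the lower end in both mice.

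Gata4 was spread over absorptive and secretory types and was low in goblet and Paneth cells. Enterocytes had 42.1 and 57.6 CPM, TA cells 44.7 and 52.5, goblet progenitors 30.2 and 58.2, tuft cells 41.1 and 42.9, and EEC 41.9 and 37.1. These 5 types overlapped and changed places between mice. Stem cells had 23.0 and 31.2 CPM, below those 5 on average and overlapping with the secretory progenitors at 23.9 and 26.8. Goblet cells had 14.0 and 20.1 CPM and Paneth cells 1.42 and 0.458.

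Outside Paneth cells Gata6 spanned 60.8 to 92.8 CPM in mouse 1 and 46.1 to 62.5 CPM in mouse 2 over 8 epithelial types. The ranges of all neighbours among these 8 overlapped, and enterocytes held rank 1 in mouse 1 and rank 5 in mouse 2. The test given below pairs types within a mouse and uses another scaling, and it called Gata6 higher in enterocytes and in goblet cells. Goblet cells held rank 6 in both mice by CPM, with 78.8 and 55.9 CPM. On the scale of that test they had 79.4 and 58.8, second to the enterocytes on average. Paneth cells had 8.25 and 5.04 CPM in mouse 1 and mouse 2, and lymphocytes had 7.62 and 0 CPM, from 2 and 0 UMIs. As for Cdx2, this comparison cannot tell whether Gata6 in Paneth cells was at the background. Gata6 was seen in 30.8% and 37.0% of Paneth cells and in 4.0% and 0% of lymphocytes, which had fewer UMIs per cell.

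Onecut2 was highest in EEC, at 148 CPM in mouse 1 and 102 CPM in mouse 2. Secretory progenitors had 128 and 66.9 CPM, stem cells 76.8 and 74.8, and TA cells 73.6 and 69.4. Goblet progenitors had 66.8 and 47.4 CPM, tuft cells 55.6 and 32.1, enterocytes 49.9 and 38.7, and goblet cells 39.7 and 21.5. The EEC were first in both mice and overlapped with the secretory progenitors, whereas stem and TA cells lay above the goblet progenitors without overlap. Paneth cells had 2.84 and 1.83 CPM, and lymphocytes had 0 Onecut2 UMIs in both mice.

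**Figure D1:**
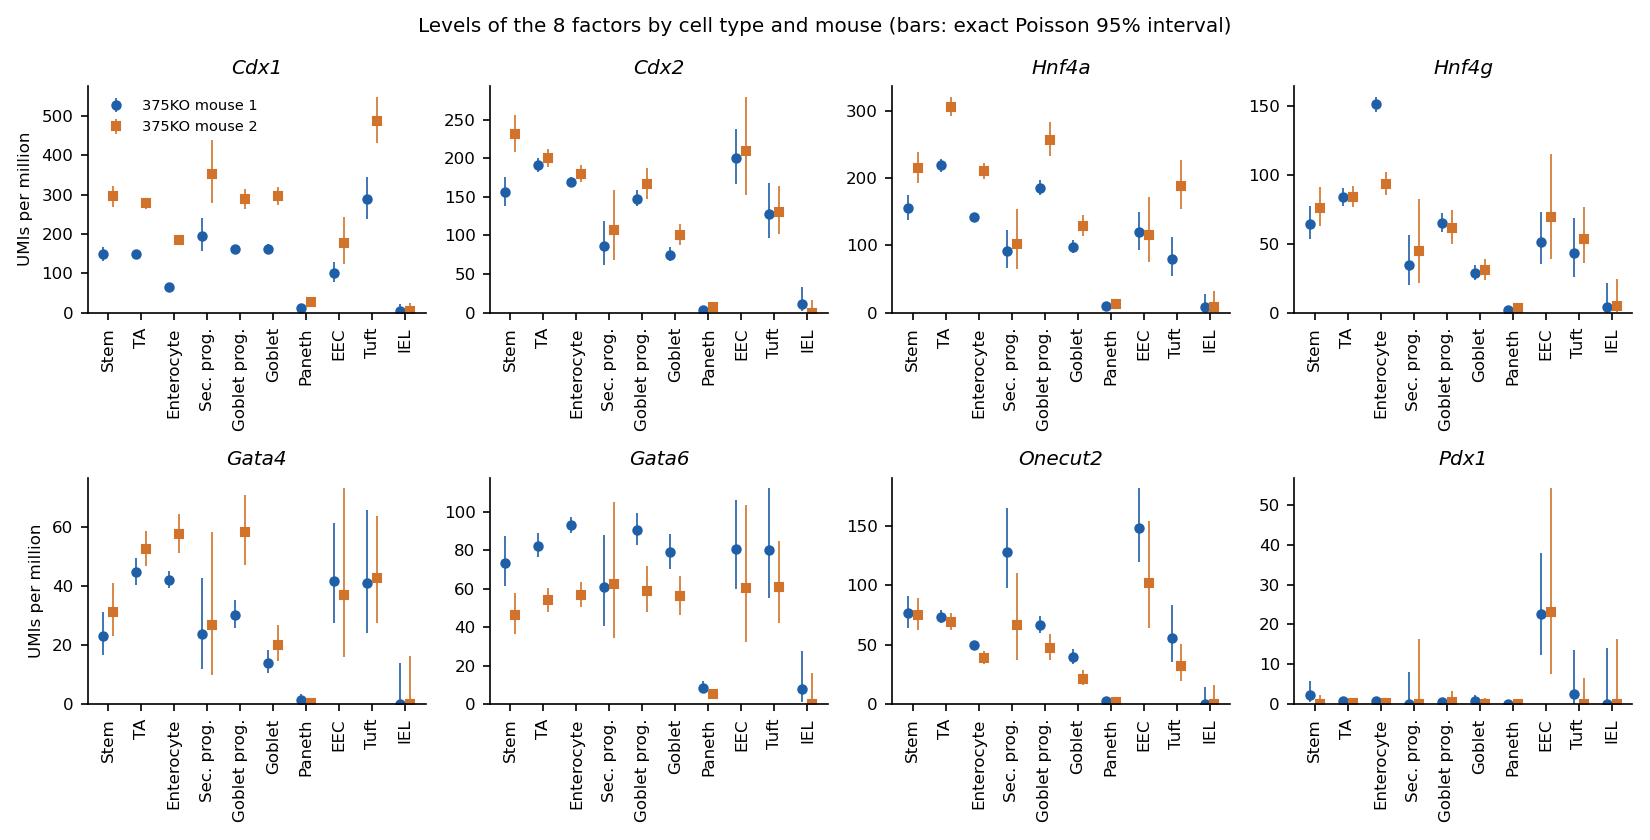
Level of each factor in CPM (y axis) for the 10 annotated cell types (x axis), with 1 point per 375KO mouse and exact Poisson 95% intervals that cover counting error only. Onecut2 and Pdx1 are highest in EEC, Cdx1 in tuft cells and Hnf4g in enterocytes, while lymphocytes are at or below 11.4 for all 8 factors.

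Pdx1 was at its highest level in EEC and was seen at low levels or not at all elsewhere. EEC held 14 UMIs in mouse 1 and 5 in mouse 2, or 22.6 CPM (exact Poisson 95% interval 12.3 to 37.8) and 23.2 CPM (7.54 to 54.2). The rest of the epithelium had 33 and 4 UMIs, or 0.765 and 0.184 CPM, a ratio of 29.5 and 126. At least 1 Pdx1 UMI was found in 7 of 54 EEC of mouse 1 (13.0%, exact Clopper-Pearson 95% interval 5.37 to 24.9%) and in 4 of 20 EEC of mouse 2 (20.0%, 5.73 to 43.7%). No other type had an observed level above 2.42 CPM in either mouse. In small types this leaves room for more. The 0 UMIs allow up to 8.01 and 16.5 CPM in secretory progenitors and up to 14.0 and 16.4 CPM in lymphocytes. The 1 UMI in tuft cells of mouse 1 allows up to 13.5 CPM. Of these limits, only the 8.01 CPM of mouse 1 lies below the EEC interval of its mouse. With 19 UMIs in all, the level rested on few molecules, and the intervals of both mice overlapped.

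To compare the share of cells with a transcript at equal depth, each cell was thinned to 5000 UMIs. Cdx2 was then seen in 55.9% and 66.7% of stem cells, 54.8% and 55.5% of enterocytes and 27.2% and 40.6% of goblet cells. Hnf4g was seen in 26.5% and 31.6% of stem cells and in 49.8% and 36.6% of enterocytes, compared with 51.8% and 54.7% and with 85.8% and 69.6% before thinning. Onecut2 was seen in 52.8% and 30.0% of EEC and in 20.2% and 16.0% of enterocytes. In lymphocytes, of which 11 in mouse 1 and 18 in mouse 2 were deep enough, the highest thinned share was 18.2%, for Cdx2 in mouse 1, and Onecut2, Gata4 and Gata6 were in 0 cells.

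Sequence upstream of the genes is shown for the members found in the RefSeq promoter table (build GRCm38.p6), which were Cdx2, Hnf4a with 2 start sites, and Pdx1. Both Hnf4a starts and the Cdx2 start are printed because their windows hold core letters recognised by other factors of the set or by HNF1 factors. Each line gives 180 bases before to 20 bases after the start, in the direction of the gene, and capitals mark the motif letters.
Hnf4a, chr2:163506677-163506876, plus strand: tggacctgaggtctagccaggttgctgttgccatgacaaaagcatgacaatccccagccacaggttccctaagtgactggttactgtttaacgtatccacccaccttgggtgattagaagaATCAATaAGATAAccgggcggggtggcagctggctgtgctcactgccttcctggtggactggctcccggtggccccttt
Hnf4a, chr2:163546975-163547174, plus strand: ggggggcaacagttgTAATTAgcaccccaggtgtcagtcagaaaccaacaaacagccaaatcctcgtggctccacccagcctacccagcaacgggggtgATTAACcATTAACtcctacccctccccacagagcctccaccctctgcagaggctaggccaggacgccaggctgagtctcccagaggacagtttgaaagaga
Cdx2, chr5:147307230-147307429, minus strand: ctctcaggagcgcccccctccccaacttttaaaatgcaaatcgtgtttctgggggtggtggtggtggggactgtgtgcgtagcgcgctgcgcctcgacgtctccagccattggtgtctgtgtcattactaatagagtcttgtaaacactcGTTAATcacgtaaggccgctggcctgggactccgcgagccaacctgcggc

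Searched on both strands of the full windows, from 250 bases before to 50 bases after each start, were the letters TTTATNG of CDX factors, CAAAGTCCA of HNF4 factors, AGATAA of GATA factors, ATCAAT of ONECUT factors, GTTAAT of HNF1 factors and TAATTA of PDX1. The first Hnf4a window held ATCAAT 59 bases and AGATAA 52 bases before the start. The second held TAATTA, which reads alike on both strands, 165 bases before the start and GTTAAT on the opposite strand at 81 and 74 bases before it, printed as its reverse complement. The Cdx2 window held GTTAAT 30 bases before the start, and the Pdx1 window held none of the 6 motifs. Of the 32851 windows in the table, 10.9% held the CDX letters, 0.475% the HNF4 letters, 11.2% the GATA letters, 7.54% the ONECUT letters, 7.10% the HNF1 letters and 5.29% the PDX1 letters. The matches are descriptions of sequence, and reads from the 3′ end of transcripts cannot tell the 2 Hnf4a starts apart.

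All 8 factors differed across the 9 epithelial types in a test of UMI sums per type and mouse with edgeR's quasi-likelihood test and Benjamini-Hochberg adjustment over all genes tested (adjusted p from 6.3e-08 for Hnf4g to 0.00641 for Gata6). Without the mouse term, Cdx1 (edgeR adjusted p = 0.564) and Gata6 (edgeR adjusted p = 0.406) did not pass. Across all 11013 genes tested the share that differed was 77.3%, so that such a difference was common. The fit held cell type and mouse as terms, with trimmed mean of M-values (TMM) scaling, and the types of 1 mouse were paired by the animal.

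Along the absorptive axis, from stem cells to enterocytes, Gata4, Hnf4g and Gata6 were higher in enterocytes and Cdx1 and Onecut2 lower. The call was made for 5 of the 8 factors, beside 51.3% of all genes tested, and the median log2 difference was 0.18 over the factors and 0.06 over all genes. The share called among the 8 was thus near that of all genes. Gata4 was higher by 1.16 on the log2 scale (SE 0.23, edgeR adjusted p = 8.6e-05), with 1.23 in mouse 1 and 1.04 in mouse 2. Hnf4g was higher by 1.10 (SE 0.23, edgeR adjusted p = 2.2e-04), and the change was larger in mouse 1 at 1.60 than in mouse 2 at 0.46.

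Gata6 was higher in enterocytes by 0.61 (SE 0.18, edgeR adjusted p = 0.00598), a call lost without the mouse term (adjusted p = 0.159), after thinning (0.0817), under a stricter cell filter (0.1205) and with scaling by UMI totals (0.182). Cdx1 was lower by a log2 value of -0.64 (SE 0.16, edgeR adjusted p = 0.00102), with -0.79 in mouse 1 and -0.50 in mouse 2, and the call was lost without the mouse term (adjusted p = 0.544). Onecut2 was lower by a log2 value of -0.50 (SE 0.20, edgeR adjusted p = 0.0340), with -0.24 in mouse 1 and -0.78 in mouse 2, which did not pass without the mouse term (adjusted p = 0.278).

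Cdx2 and Hnf4a were not separated between the ends of the axis. Cdx2 had a log2 difference of 0.16 (95% interval -0.26 to 0.57, edgeR adjusted p = 0.4995), with 0.50 in mouse 1 and -0.19 in mouse 2. Hnf4a had 0.20 (95% interval -0.19 to 0.58, edgeR adjusted p = 0.338). Both signs turned with scaling by UMI totals, to -0.13 and -0.08. Under that scaling the all-gene median was -0.22 in place of 0.06, and 39.2% of calls were higher in enterocytes in place of 54.2%. Pdx1 had 4 and 0 UMIs in stem cells, and no fold is given. Enterocytes had a median mitochondrial share of 13.2% in mouse 1 and 7.59% in mouse 2, against 10.2% and 5.89% in stem cells, and its part in these differences was not tested.

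**Figure D2:**
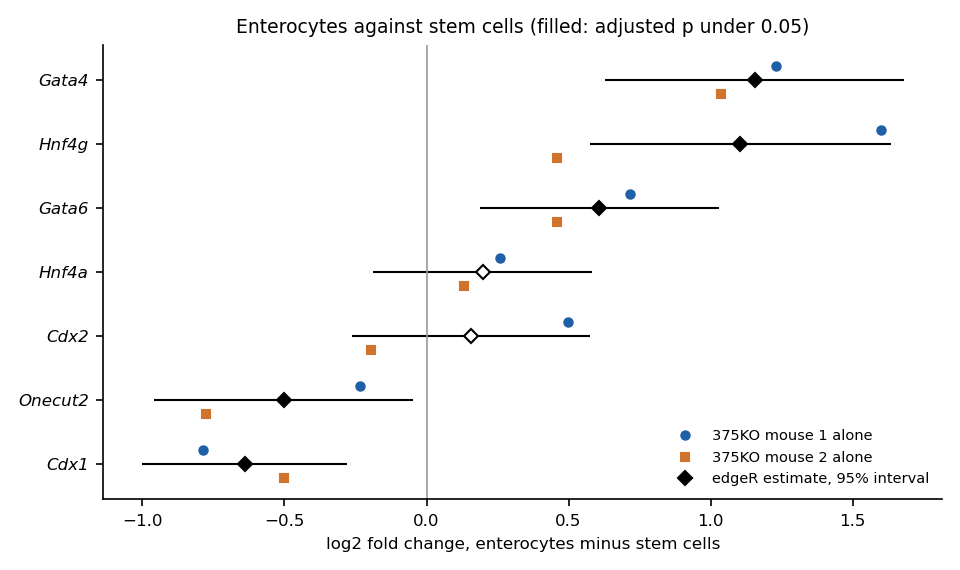
Log2 fold change of enterocytes minus stem cells (x axis) for 7 factors (y axis), with the edgeR estimate, its 95% interval and the value of each mouse alone; filled symbols passed an adjusted p of 0.05. Gata4 and Hnf4g lie highest at 1.16 and 1.10, and the mice point in opposite directions for Cdx2.

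Each epithelial type was also set against the mean of the other 8. Enterocytes had 6 of 8 factors called, beside 54.5% of all genes. Hnf4g was higher by 1.70 on the log2 scale (SE 0.16, adjusted p = 3.7e-10), Gata4 by 1.17 (SE 0.16), Cdx2 by 0.82 (SE 0.13), Hnf4a by 0.59 (SE 0.12) and Gata6 by 0.52 (SE 0.13), while Cdx1 was lower with -0.62 (SE 0.12). Hnf4g was at 2.23 in mouse 1 and 1.004 in mouse 2, and Gata6 at 0.70 and 0.25. The members' median in enterocytes was 0.58, against 0.03 over all genes. Stem cells had 3 factors called, beside 25.6% of all genes, and all 3 were higher, namely Cdx2 at 0.65 (SE 0.14), Onecut2 at 0.54 (SE 0.16) and Hnf4a at 0.37 (SE 0.13). Onecut2 was at 0.28 in mouse 1 and 0.84 in mouse 2. The stem cell calls of Onecut2 and Hnf4a were lost in 3 and 4 of 9 alternatives. Both were lost without the Paneth sums and without the mouse term. TA cells had 4 called, beside 32.8% of all genes, with Hnf4a at 0.79 (SE 0.12), Gata4 at 0.69 (SE 0.16), Hnf4g at 0.60 (SE 0.17) and Cdx2 at 0.54 (SE 0.13).

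In the secretory lineages the calls fell on several of the factors. Secretory progenitors had higher Onecut2 (0.88, SE 0.23, edgeR adjusted p = 0.0170) and lower Hnf4a (-0.74, SE 0.20, edgeR adjusted p = 0.0231), beside 4.78% of all genes called. That Onecut2 value was 1.01 in mouse 1 and 0.55 in mouse 2. Both calls were lost without the mouse term and after thinning. The Onecut2 call was also lost without the Paneth sums, and the Hnf4a call with scaling by UMI totals. Goblet progenitors had higher Hnf4a (0.53, SE 0.12) as the single call, beside 12.1% of all genes. Goblet cells had higher Cdx1 (0.59, SE 0.11) and Gata6 (0.46, SE 0.14) and lower Onecut2 (-0.51, SE 0.18; -0.32 in mouse 1 and -0.78 in mouse 2), beside 29.2% of all genes. Tuft cells, the chemosensory type, had higher Cdx1 (0.78, SE 0.13, edgeR adjusted p = 2.2e-05), beside 16.0% of all genes.

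EEC, the hormone cells, had 5 factors called, beside 21.6% of all genes. Onecut2 was higher by 1.05 (SE 0.20, edgeR adjusted p = 1.8e-04) and Pdx1 was higher (edgeR adjusted p = 4.8e-06), with a fitted fold that depends on the types at 0 UMIs and is not given. Cdx1 was lower (-0.92, SE 0.16), Hnf4a was lower (-0.56, SE 0.18; -0.34 in mouse 1 and -0.88 in mouse 2) and Cdx2 was higher (0.48, SE 0.18, edgeR adjusted p = 0.0496). The Cdx2 call was lost in 6 of 9 alternatives. With scaling by UMI totals Hnf4a turned to 0.11 and Cdx1 was at -0.25, and neither passed. Summed lymphocyte markers reached 1281 CPM in the EEC of mouse 2 against 3.22 CPM in mouse 1, while lymphocytes themselves had 0 UMIs of Onecut2 and Pdx1.

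Paneth cells had 5 factors called, all lower, beside 27.0% of all genes. Gata4 was lower with -2.06 (SE 0.46, edgeR adjusted p = 7.6e-04), Cdx2 with -1.62 (SE 0.24, edgeR adjusted p = 2.3e-06), Onecut2 with -1.54 (SE 0.32), Hnf4g with -1.17 (SE 0.36) and Hnf4a with -0.57 (SE 0.18). The mice differed in size, with -1.29 in mouse 1 and -2.87 in mouse 2 for Gata4, from 5 and 2 Paneth UMIs, -2.48 and -1.12 for Cdx2, and -1.94 and -0.69 for Hnf4g. After thinning, the calls of Gata4 (edgeR adjusted p = 0.739), Hnf4g (0.624) and Onecut2 (0.0808) were lost. Cdx1 at -0.23 and Gata6 at -0.15 did not pass the test. These values were relative to TMM factors of 0.156 and 0.121 for the Paneth sums, against 0.952 to 1.59 in all other sums, and the all-gene median in Paneth cells was -0.04 with them and -3.20 with UMI totals. Under the TMM scale the lowest type was no longer the Paneth cells for Cdx1 (EEC, 92.6), Hnf4a (secretory progenitors, 72.5) and Gata6 (secretory progenitors, 46.0), and the highest type for Cdx2 became the enterocytes (168) in place of the EEC.

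**Figure D3:**
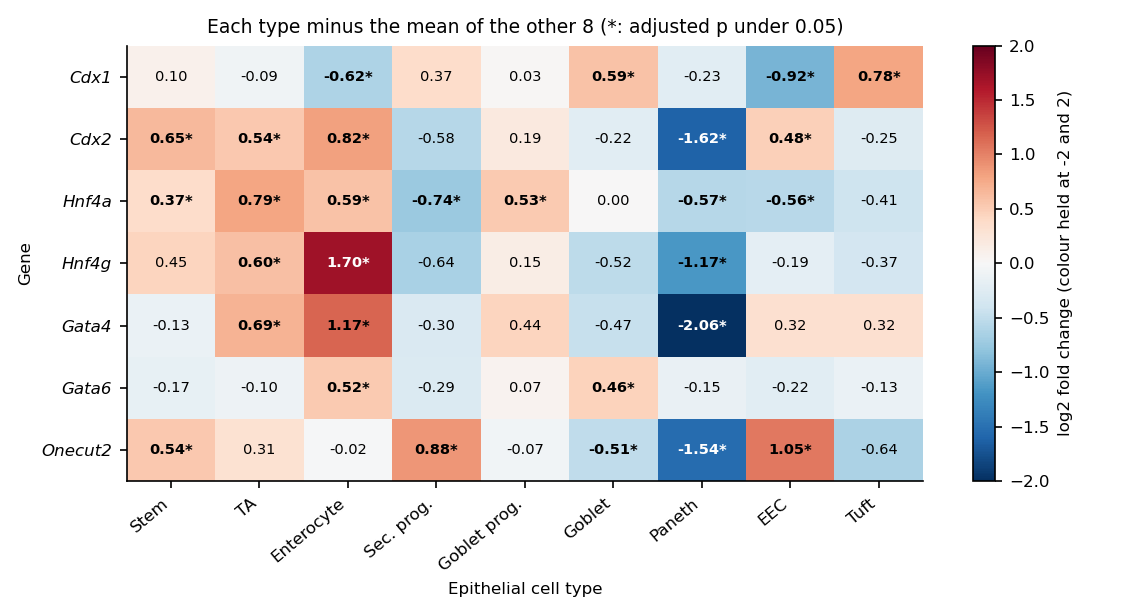
Log2 fold change of each epithelial type (x axis) minus the mean of the other 8 types for 7 factors (y axis), from edgeR with TMM scaling; an asterisk marks an adjusted p under 0.05, and colour is held at -2 and 2. Hnf4g in enterocytes stands at 1.70, and Gata4, Cdx2, Onecut2 and Hnf4g in Paneth cells stand between -2.06 and -1.17, in an order that differed between the mice.

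Over the 9 types, 30 calls were made for the factors. Without the mouse term 9 of the 30 still passed, which were Cdx2, Gata4 and Hnf4g in enterocytes and in Paneth cells, Onecut2 in EEC and Paneth cells, and Pdx1 in EEC. Under every alternative with a test, 6 passed, namely Cdx2, Gata4 and Hnf4g in enterocytes, Cdx2 in Paneth cells, and Onecut2 and Pdx1 in EEC.

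Shares within a paralog pair do not depend on the scaling between cell types, although the efficiency of capture of each transcript enters them. Hnf4g made up 51.4% of the UMIs of the Hnf4 pair in enterocytes of mouse 1 (exact Clopper-Pearson 95% interval 50.1 to 52.7%) and 30.7% in mouse 2 (28.5 to 33.1%). In stem cells the share was 29.3% and 26.1%, in TA cells 27.7% and 21.6%, and in goblet cells 22.8% and 19.3%. The enterocyte share lay above those of stem, TA and goblet cells in each mouse. In mouse 2 its interval overlapped with that of the stem cells (22.2 to 30.4%). The enterocyte share differed between the mice beyond their intervals. In mouse 2 the EEC had a higher share than the enterocytes, at 37.5%, and the secretory progenitors a similar one, at 30.3%, both from few UMIs. Under the stricter filter, which kept 148 of 931 enterocytes of mouse 1, 25 of the 27 mean shares moved by less than the spread between mice. This measure lets large shifts pass where the mice differ. In enterocytes of mouse 1 the Cdx1 share of its pair went from 27.9% (26.6 to 29.3%) to 34.5% (31.5 to 37.7%).

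Cdx1 made up 27.9% and 50.8% of the UMIs of the Cdx pair in enterocytes and 33.3% and 45.8% in EEC. Stem cells had 48.7% and 56.1%, whereas goblet cells had 68.2% and 74.7%, secretory progenitors 69.2% and 76.7%, tuft cells 69.2% and 78.9%, and Paneth cells 81.5% and 78.6%. The share in goblet, secretory progenitor, tuft and Paneth cells was above that in stem cells, enterocytes and EEC in both mice. Gata4 made up 31.2% and 50.4% of the UMIs of the Gata pair in enterocytes, 23.8% and 40.3% in stem cells, 15.1% and 26.5% in goblet cells, and 14.7% and 8.33% in Paneth cells, where the pair had few UMIs.

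**Figure D4:**
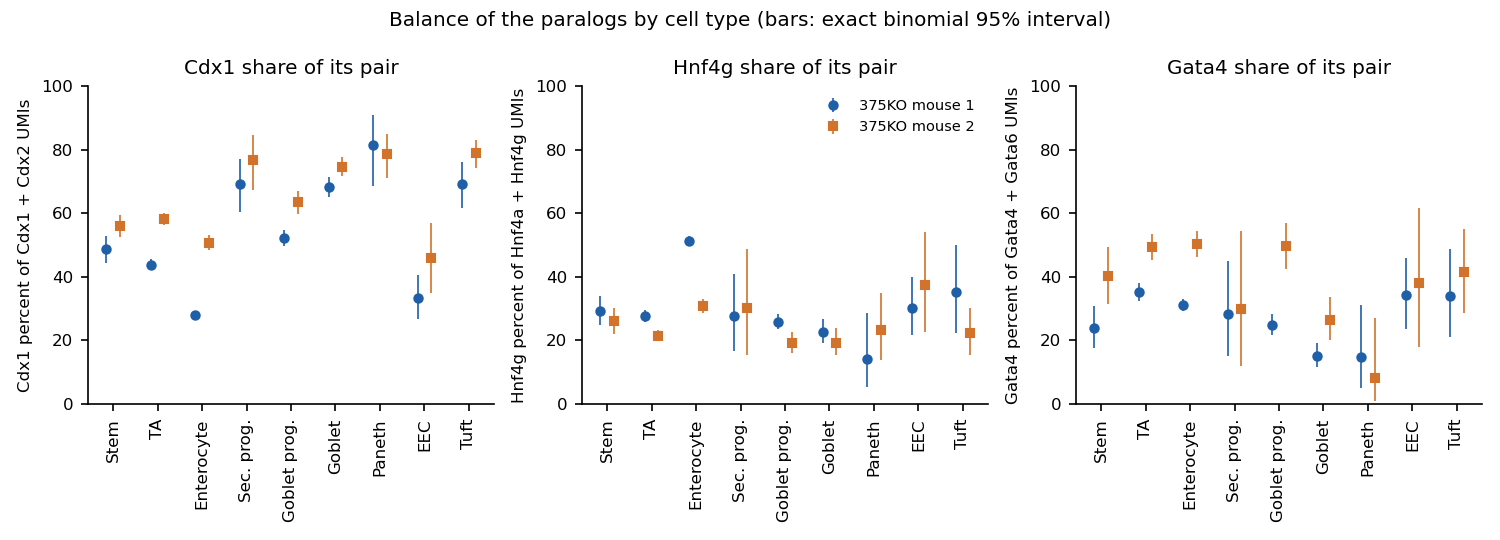
Percent of the UMIs of each paralog pair (y axis) that belonged to the gene named above each panel, by epithelial cell type (x axis) and 375KO mouse, with exact binomial 95% intervals. Enterocytes have the highest Hnf4g share in mouse 1 at 51.4%, and the Cdx1 share is at least 68.2% in goblet, secretory progenitor, tuft and Paneth cells and at most 56.1% in stem cells, enterocytes and EEC.

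The mice differed in several factors, and with 1 library per mouse no test was possible. Cdx1 was higher in mouse 2 in 9 of 9 epithelial types, by 1.69- to 2.83-fold, and by 2.04-fold over the whole epithelium. Onecut2 was higher in mouse 1 in 9 of 9 types, by 1.03- to 1.91-fold, and Gata6 in 8 of 9 types, with ratios of mouse 1 to mouse 2 of 0.973 to 1.64 within types, all below the 1.80-fold of the whole epithelium. Cdx2 was higher in mouse 2 within 9 of 9 types, yet its level over the whole epithelium had a ratio of 0.971 of mouse 2 to mouse 1, and the types held different shares of the UMIs in each mouse. The mitochondrial share also differed between the mice, and its part in these differences was not tested.

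The authors' annotation divides enterocytes into 5 numbered clusters, and 1 of them had almost no Onecut2. Cluster 9, with 99 cells in mouse 1 and 58 in mouse 2, held 2 and 4 Onecut2 UMIs, or 0.835 and 4.51 CPM. The other 4 clusters had 50.6 to 72.1 CPM in mouse 1 and 32.8 to 61.0 CPM in mouse 2, which pooled to 68.1-fold and 10.1-fold the level of cluster 9. Gata4 was also below the range of the other clusters in both mice, at 23.8 against 37.7 to 51.6 CPM and at 38.4 against 48.9 to 71.7 CPM. Gata6 was below that range as well, at 57.6 against 80.3 to 109 CPM and at 39.5 against 47.8 to 75.9 CPM. Hnf4a, Hnf4g and Cdx1 were within the range in both mice, and Cdx2 was at its upper edge in mouse 1 and within it in mouse 2.

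The same cluster had the highest enterocyte levels of the ileal bile acid genes. Fabp6, the ileal bile acid binding protein, had 20948 and 6438 CPM in cluster 9 against 0 to 550 and 5.77 to 152 CPM in the others. Slc10a2, the apical bile acid transporter, had 42.6 and 20.3 CPM against at most 1.13 and 4.53 CPM. Slc51a and Slc51b, subunits of the basolateral bile acid exporter, were above the other clusters in both mice, at 912 and 479 CPM and at 607 and 300.1 CPM. Fabp1, the proximal fatty acid binding protein, had 1729 and 1491 CPM, within the range of the others. The others pooled to 12.7-fold and 6.75-fold that level. For Apoa4 the pooled level was 9.13-fold and 17.2-fold that of cluster 9, and for Lct 3.39-fold and 1.43-fold. The ratio was 1.17 and 1.04 for Alpi and 1.06 and 0.69 for Sis. The clusters were made from these same cells and cluster 9 was singled out after its values were seen, so these contrasts are a description with no test. Without cluster 9, Onecut2 in enterocytes minus stem cells was -0.30 on the log2 scale (edgeR adjusted p = 0.217), whereas the other 4 calls were kept.

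**Figure D5:**
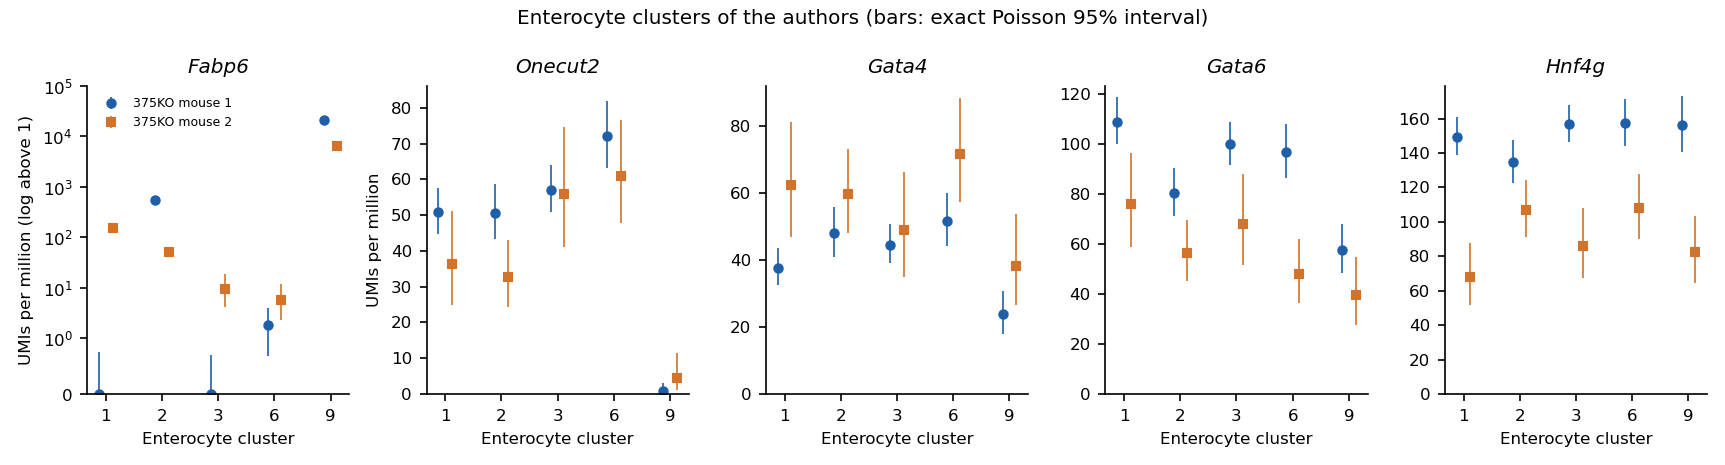
CPM (y axis; log above 1 for Fabp6) in the 5 enterocyte clusters of the study's annotation (x axis) by 375KO mouse, with exact Poisson 95% intervals. In cluster 9 Fabp6 is at 20948 and 6438, Onecut2 at 0.835 and 4.51, and Hnf4g at 156 and 82.4, within the range of the other clusters.

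Fabp6 was also found in some cells outside cluster 9, and these were compared with cells that had none in the same clusters. In mouse 1, 37 cells had 10 or more Fabp6 UMIs, of which 21 were enterocytes, 9 TA cells and 7 goblet progenitors. They held 2 Onecut2 UMIs, or 2.11 CPM (exact Poisson 95% interval 0.256 to 7.62), against 68.2 CPM (63.7 to 72.9) in 488 cells of the same 4 clusters with no Fabp6 UMI. Onecut2 was at 2.20 against 61.1 CPM among enterocytes, at 6.59 against 66.5 CPM among TA cells and at 0 against 74.1 CPM among goblet progenitors, so the low level was found in each of the 3 types. Gata4 was at 27.4 (17.9 to 40.2) against 43.9 CPM (40.4 to 47.7). Cdx2 was at 202 against 182 CPM and Hnf4g at 102 against 92.3 CPM. In mouse 2, 4 such cells held 0 Onecut2 UMIs, which allows up to 73.4 CPM, against 34.3 CPM in 158 cells with none, so that a difference was not detectable at this depth. These cells were chosen after the levels were seen, and the split is a description with no test.

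Among the hormone cells, most Pdx1 UMIs of mouse 1 were in cells led by Gip, the incretin gene of K cells. The 74 EEC were grouped by the most abundant of 8 hormone or enzyme genes, a division made after the values were seen. No UMI of these 8 genes was found in 4 cells of mouse 1 and 2 cells of mouse 2. In mouse 1, 14 cells led by Gip held 10 of the 14 Pdx1 UMIs in 4 cells, 9 cells led by Cck held 1, and 2 cells led by Sst held 3 in 2 cells. In mouse 2, 5 cells led by Gip held 3 UMIs and 5 cells led by Cck held 2, each in 2 cells, so that these groups were not separated. The 15 and 4 cells led by Tph1, the serotonin enzyme of enterochromaffin cells, held 0. Onecut2 had 194 and 205 CPM in cells led by Tph1 and 75.0 and 21.8 CPM in cells led by Gip, from 38 and 7 and from 14 and 1 UMIs. The 2 cells led by Sst in mouse 1 held 5 Onecut2 UMIs, or 381 CPM. Cells led by Ghrl had 191 and 272 CPM of Onecut2, from 8 and 7 UMIs. The 4 and 2 cells with none of the 8 genes held 12 and 2 Onecut2 UMIs, or 545 and 52.0 CPM. The group with the highest Onecut2 level thus differed between the mice.

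Other genes of the network were read from lists by the same test of enterocytes minus stem cells, beside a median of 0.06 and calls in 51.3% of all genes. Of 17 other gut transcription factors, 14 were tested, of which 7 were higher in enterocytes, 4 lower and 3 not called, with a median of 1.07. Creb3l3, an activator of lipid genes, was higher by 5.69 and Maf by 4.92, whereas the pioneer factors Foxa3 and Foxa2 of the secretory lineage were lower, with 68 and 46 UMIs of Foxa3 in stem cells against 1 and 6 in enterocytes, and 21 and 21 UMIs of Foxa2 against 5 and 2. Onecut1 and Cdx4, relatives of the members, had 0 UMIs in both mice. Onecut3 had 31 and 4 UMIs and was highest in EEC of both mice, as Onecut2 was.

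All 12 known targets of HNF4 were higher in enterocytes, with a median of 4.97. Apoa1, Apoa4 and Fabp1 of this list, and Sis and Alpi of the CDX2 list, were also enterocyte markers here. The study named its types by known markers, so this direction was partly set in advance and is a description. The smallest differences were Vil1, the brush border villin, at 3.05 and Dgat1, of triglyceride synthesis, at 3.35, and the largest were the apolipoprotein genes Apoa1 and Apoa4, which had 0 and 0 and 9 and 1 UMIs in stem cells, so that no fold is given. Of 12 known targets of CDX2, 10 were higher, 1 lower and 1 not called, with a median of 3.17. Lct, the lactase gene, had 1 and 0 UMIs in stem cells against 4628 and 1147 in enterocytes, Gpa33 was at 1.24, the lower one was Cdx1 itself, and Muc2 had 1.95 (adjusted p = 0.132). The 4 ileal genes that GATA4 holds down in jejunum were all higher in enterocytes, with a median of 5.56, with 6.09 for Slc51b and 5.03 for Slc51a. Fabp6 and Slc10a2 had at most 2 UMIs in the stem cells of a mouse. Cluster 9 held 50151 of 52083 and 5707 of 5934 enterocyte UMIs of Fabp6 and 102 of 116 and 18 of 27 of Slc10a2. Gata4, Gata6 and Onecut2 were each below the other clusters there, and a link of any of them to these genes was not tested.

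Genes of neighbouring organs were rare. Of 12 stomach genes 3 were tested, and 1 of them was called, Gkn3, which was lower in enterocytes and highest in stem cells of both mice. Sox2, the stomach factor opposed by Cdx2, had 0 UMIs. Of 6 colon genes 2 were tested, and Aqp4, a water channel, was lower in enterocytes with -3.65.

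The pattern of each factor over the 18 sums of type and mouse, centred within each mouse on the TMM-scaled log2 level, was compared with all genes tested. The points share 2 libraries and the cell types, so the correlations are descriptions over 18 points. Nearest to Cdx2 were Npepps (Pearson's r 0.95), Pvrl3 (0.93) and Me2 (0.93), and nearest to Hnf4g were Fam109a (0.96), Smpdl3b (0.94) and Net1 (0.93). Gata4 lay nearest to Glod5 (0.94), A1cf (0.93) and Dhrs11 (0.93), and Hnf4a to Bola3 (0.93), Paqr4 (0.91) and Gm12589 (0.90). Cdx1 had Lrrc31 (0.87), S100a11 (0.86) and Gimap9 (0.83) as nearest genes, Gata6 had Gdi2 (0.87), Dstn (0.86) and Cltb (0.84), and Onecut2 had Tra2a (0.88), Lrp6 (0.87) and Elf2 (0.87). The genes nearest to Pdx1 were Plscr4, Far2os1 and Syp, each at 0.95. Among the factors themselves the closest pair was Cdx2 and Hnf4g (r 0.87), followed by Cdx2 and Gata4 (0.71), and Cdx1 was negative with each of the other 7, from -0.05 with Gata6 to -0.54 with Pdx1.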

How the data were processed

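Per the labels, the authors used Cell Ranger 3.0.1 and Seurat 3.2.1, with reads counted against mm10; the deposited UMI counts per gene and barcode were used as deposited. The authors removed doublets, cells with few genes and cells with a high mitochondrial percent, and named the clusters; the deposited cell table gave these names, totals and the mitochondrial percent. Correction for free RNA is stated, and to which matrix it applied is not given in the sources used here; 2.73% of listed entries were 0. Totals of all 3275 kept cells were equal in both deposited tables. The 2937 cell columns of another series, sctransform counts and doublet calls were not used.

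UMIs were summed per type and mouse, 18 epithelial sums, and tested with edgeR 4.0.16 (R 4.3.3) by the robust quasi-likelihood test after filterByExpr and TMM, with type and mouse terms, 8 residual degrees of freedom and a Benjamini-Hochberg threshold of 0.05 over 11013 genes. Types of a mouse were paired because they came from the same animal. SEs come from the F statistic, and 95% intervals of log2 differences use the 8 residual degrees of freedom. The p-values also draw on the spread of other genes, so these intervals are wider than the p-values imply. CPM intervals are exact Poisson and share intervals exact Clopper-Pearson at 95%, and cover counting error only. The prior count for likeness was 2. Alternatives used DESeq2 1.42.0, no filter, no mouse term, 1 mouse, cells thinned to 5000 UMIs, no Paneth sums, lymphocyte sums, and cells with 2000 or more genes and at most 10% mitochondrial reads; omission of cluster 9 and of the TMM factor was added after the data were seen. Named were the 8 members, the 3 nearest genes of each, and the 2 highest and lowest of each list, of which some are not reported here; further list genes, cluster 9, the Fabp6 cells and the hormone division were chosen after values were seen. The members and lists were chosen with earlier results of these data known. The fit was tested on simulated data. Python 3.11.15 with numpy 2.4.6, scipy 1.17.1, pandas 2.3.3 and matplotlib 3.10.9 was used.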

Additional observations from a re-analysis of the deposited data

How the results depend on the processing

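With 2 mice, p-values rest on how far differences between types varied from 1 animal to the other, pooled over the types. For each gene the test also draws this spread toward that of other genes. The p-values do not measure the mean difference between the mice, which the mouse term removes. Small types (20 EEC and 19 secretory progenitors in mouse 2) limit precision. Of the 30 calls of a factor in a type against the rest, 30 passed with DESeq2 and 30 without cluster 9, 28 without the filter on low counts and with lymphocytes, 27 with UMI totals (2 lost, 1 turned), 26 under the stricter filter, 21 after thinning, and 9 without the mouse term; of 25 without Paneth sums, 21 passed. Leaving out a mouse left values with no test and turned none of the 30. By more than the spread between mice, 9 moved without mouse 1 and 2 without mouse 2. Each such value is that of the other mouse, and the spread is that of the same 2 mice. This measure thus left little room for a move. The cause of the changes was not tested.

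Without the replicate block, that is without the mouse term, the counts of genes called fell to 3309 for enterocytes minus stem cells, and against the other types to 1019 for stem, 1369 for TA, 3946 for enterocytes, 195 for secretory progenitors, 409 for goblet progenitors, 1721 for goblet, 1411 for EEC and 1011 for tuft cells. After thinning, with 8273 genes tested, they were 3762 for enterocytes minus stem cells, 1801 for stem, 3613 for enterocytes, 843 for goblet progenitors, 1717 for goblet, 771 for Paneth and 1086 for tuft cells. With UMI totals, chosen after seeing the data, they were 6509 for TA, 1582 for secretory progenitors, 5553 for goblet progenitors, 9820 for Paneth, 4099 for EEC and 3847 for tuft cells.

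For enterocytes minus stem cells without the block, Cdx1 was -0.59, Gata6 0.62 and Onecut2 -0.49, and none passed. Gata6 was 0.51 after thinning, 0.38 under the stricter filter and 0.32 with UMI totals, and Onecut2 -0.30 without cluster 9. Hnf4a turned to -0.033 after thinning and -0.078 with UMI totals, Cdx2 to -0.13 with UMI totals, and Hnf4a in EEC to 0.11. Pdx1 ranged from -0.79 to 0.74 when 1 mouse was left out, values that depend on the prior count, since stem cells of mouse 2 had 0 UMIs, and are no fold.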
